A study of Arabidopsis thaliana with 8 samples.

Results

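Abscisic acid is the plant hormone of drought and seed dormancy, and 9 genes of its synthesis and signalling were followed in whole seedlings. They were chosen by locus: NCED3 (AT3G14440), the phosphatase genes ABI1 (AT4G26080), ABI2 (AT5G57050), HAB1 (AT1G72770) and HAI1 (AT5G59220), the kinase gene SNRK2.6 (AT4G33950, listed as OST1), the transcription factor genes ABI5 (AT2G36270) and ABF3 (AT4G34000), and the dehydrin gene RAB18 (AT5G66400). All 9 were among the 22951 genes of the deposited table. RNA-seq was run on 8 libraries, all of Arabidopsis thaliana in the Col-0 background: 3 of wild type Col-0, 2 of a line with MIR394A overexpression (titled MIR394 OE, here MIR394A_OE) and 3 of bin2-1. The bin2-1 allele is a dominant mutant form of BIN2, a kinase that represses brassinosteroid responses. Every library came from seedlings aged 5 days, kept at 4 °C for 4 days as seeds and then grown at 22 °C in 16 h light and 8 h dark. The labels name neither the promoter that drives MIR394A nor the number of lines or seedlings behind a library, and nothing says that replicates were sown separately, so the p-values measure a spread that may be technical.

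As background, cells make abscisic acid from cleaved carotenoids, and NCED enzymes carry out the cleavage. Receptors of the PYR/PYL family bind the hormone and then block clade A PP2C phosphatases such as ABI1, which otherwise keep SnRK2 kinases inactive. Freed SnRK2 kinases phosphorylate bZIP factors of the ABF and ABI5 type, which bind promoter elements with the core ACGTG and switch on protective genes such as RAB18. BIN2 is known to phosphorylate SnRK2 kinases and ABI5, and ABI1 and ABI2 are known to dephosphorylate BIN2, so the 2 hormone pathways meet at the protein level, which RNA levels do not measure.

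Levels are FPKM, fragment numbers scaled to transcript length and sequencing depth, so they can be set against each other between genes. Depth, estimated from the smallest FPKM steps, was 9.73 to 11.3 M reads per library, at which 3 reads on 1 kb correspond to 0.266 to 0.308 FPKM. MIR394A was not analysed here. LCR, the target of miR394, was at 17.15 and 17.47 FPKM in MIR394A_OE, below its Col-0 values of 19.62, 19.62 and 23.86. It was not called (limma, adjusted p = 0.874), and 6.17% of all genes tested were lower without overlap in this comparison. As MIR394A was not analysed, the overexpression was not checked. The first principal component, which held 43.1% of the variance, set the 3 bin2-1 libraries (30.9 to 38.6) apart from all others (-54.2 to 2.69), among which MIR394A_OE replicate 1 (-54.2) and Col-0 replicate 1 (-35.4) were lowest. Leaf and root markers were above 0 in every library of these whole seedlings. All 8 libraries entered a single limma fit on log2(FPKM + 1) over 18798 genes, all 9 members among them, where a call is an adjusted p of 0.05 or less.

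None of the 9 genes was called in any of the 3 comparisons. The background was low too: 0.0106% of the genes tested were called in MIR394A_OE against Col-0, 0.112% in bin2-1 against Col-0 and 0.0532% in MIR394A_OE against bin2-1. At an unadjusted p under 0.05 there were 1, 2 and 2 of the 9 genes, against 4.78%, 17.8% and 19% of all genes tested. They were ABF3, higher in MIR394A_OE than in Col-0 (3.15% of genes were higher and 1.63% lower at this p), and HAI1 and RAB18, lower in bin2-1 than in Col-0 (11.1% higher, 6.67% lower). In MIR394A_OE against bin2-1 they were ABF3, higher, and ABI1, lower (8.08% higher, 10.9% lower). HAI1 passed the minimum mean of 1 FPKM for testing only through its Col-0 libraries, so its direction is tied to that filter. Both comparisons with Col-0 use the same 3 Col-0 libraries. The half-width of the 95% interval of a log2 fold change was 0.51, 0.46 and 0.51 for the median gene of these comparisons, so smaller changes were mostly not resolvable. In whole seedlings fewer cells of a type and less RNA per cell cannot be told apart.

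In wild type the 9 genes spanned a wide range of levels. ABI1 was the most abundant at 33.7 ± 2.58 FPKM (SD, n = 3), at the 82.9th percentile of the table. SNRK2.6 (16.4 ± 4.15), RAB18 (14.2 ± 4.16) and ABF3 (13.5 ± 4.47) came next, and their library values overlapped one another. HAB1 followed at 8.62 ± 1.90 FPKM, with 1 library inside the range of ABF3 and none inside that of RAB18. ABI2 (2.88 ± 0.810), ABI5 (1.93 ± 1.24), NCED3 (1.52 ± 0.613) and HAI1 (1.49 ± 0.489) formed a low group below every HAB1 value, in which each gene overlapped the next in this order, while ABI2 and HAI1 did not overlap. Estimated reads per library were 535 to 1110 for ABI1 but 10.5 to 42.8 for HAI1, 13.8 to 60.6 for ABI5 and 15.1 to 66.4 for NCED3, so counting error weighs most on these last 3. The spread of log2 values within groups was 0.46 for ABI5 and 0.40 for RAB18, at the 88.6th and 82.6th percentile of the genes tested, against a median of 0.25. The other 7 lay between 0.19 and 0.32.

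**Figure D1:**
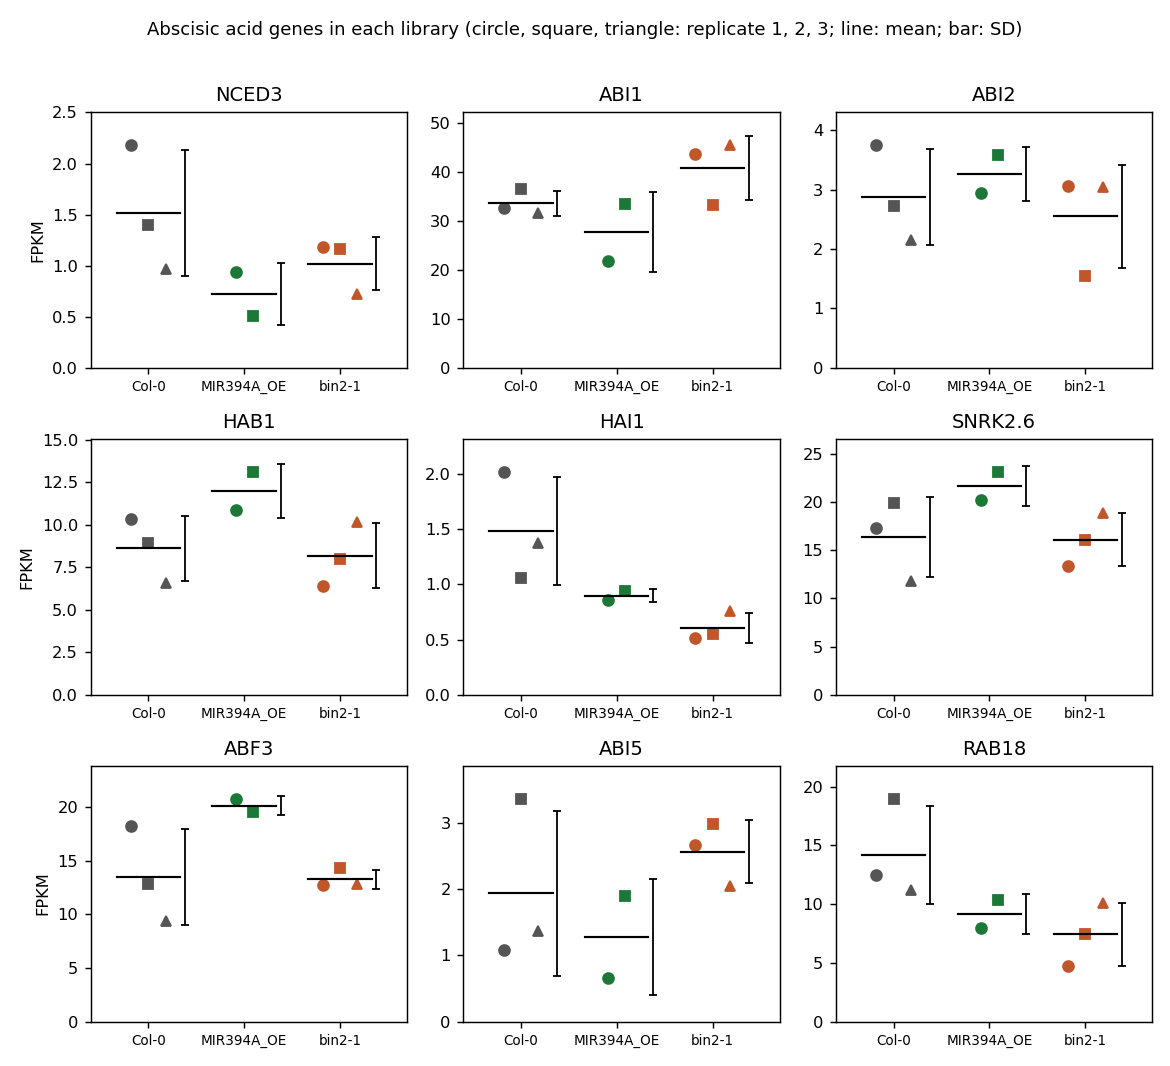
FPKM of the 9 genes (y axis, linear from 0) in every library of Col-0, MIR394A_OE and bin2-1 (x axis), where symbols mark the replicate number, lines the group mean and bars the SD. HAI1 and RAB18 are lower in all 3 bin2-1 libraries than in any Col-0 library, and ABF3, HAB1 and SNRK2.6 are higher in both MIR394A_OE libraries than in any Col-0 library.

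NCED3 encodes the NCED enzyme best known for the drought-induced synthesis of abscisic acid. Its levels were 2.18, 1.40 and 0.97 FPKM in Col-0, 0.94 and 0.51 in MIR394A_OE, and 1.18, 1.16 and 0.72 in bin2-1. Both MIR394A_OE libraries lay below every Col-0 library, the nearest pair differing by only 0.03 FPKM, while bin2-1 overlapped both groups. The log2 fold change of FPKM + 1 in MIR394A_OE against Col-0 was -0.53 (95% interval -1.09 to 0.04, limma, adjusted p = 0.873), and -0.95 with a pseudocount of 0.1 FPKM, still with no call. For bin2-1 against Col-0 it was -0.30 (95% interval -0.80 to 0.21, adjusted p = 0.505), and -0.11 without the 2 libraries lowest on component 1. The other NCED genes measured were lower still, with NCED2 at 0.00 to 0.62 FPKM, NCED5 at 0.00 to 0.18 and NCED9 at 0.00 to 0.26.

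The clade A PP2C phosphatases are the negative regulators of the pathway. ABI1 was at 32.68, 36.59 and 31.71 FPKM in Col-0, at 21.90 and 33.51 in MIR394A_OE, and at 43.77, 33.31 and 45.54 in bin2-1. Replicates 1 and 3 of bin2-1 were the highest and MIR394A_OE replicate 1 the lowest, and all groups overlapped. Against Col-0 the log2 fold change was 0.26 in bin2-1 (95% interval -0.17 to 0.70, limma, adjusted p = 0.495) and -0.30 in MIR394A_OE (95% interval -0.79 to 0.19, adjusted p = 0.873), the latter ranging from -0.60 to -0.0036 with a single library left out. The log2 fold change of MIR394A_OE against bin2-1 was -0.56 (95% interval -1.05 to -0.07, limma, adjusted p = 0.218). It was called only in the fit without MIR394A_OE replicate 2 (-0.86, adjusted p = 0.0421), where MIR394A_OE is a single library assumed to vary like the other groups and 12.3% of all genes tested were called, and was -0.27 without replicate 1.

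ABI2, the closest relative of ABI1, was at 3.75, 2.73 and 2.15 FPKM in Col-0, at 2.94 and 3.58 in MIR394A_OE and at 3.07, 1.55 and 3.04 in bin2-1. These ranges overlapped throughout, with intervals of the log2 fold change of -0.45 to 0.76 in MIR394A_OE and -0.68 to 0.40 in bin2-1 against Col-0. ABI1 and ABI2 shared no run of 50 bases with each other or with any other place in the genome, and the same held for all 9 genes, so no other place matches a read of that length exactly.

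HAB1, a phosphatase known to bind and dephosphorylate SNRK2.6, was at 10.35, 8.93 and 6.58 FPKM in Col-0, at 10.89 and 13.11 in MIR394A_OE and at 6.39, 7.99 and 10.19 in bin2-1. Both MIR394A_OE libraries were above all others, though by little. The log2 fold change against Col-0 was 0.45 (95% interval -0.10 to 0.99, limma, adjusted p = 0.873), or 0.70 without the 2 libraries lowest on component 1, and that against bin2-1 was 0.52 (95% interval -0.03 to 1.06, adjusted p = 0.282).

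HAI1, a phosphatase gene known to be strongly induced by abscisic acid, was at 2.02, 1.06 and 1.38 FPKM in Col-0, at 0.86 and 0.94 in MIR394A_OE and at 0.51, 0.55 and 0.76 in bin2-1. The 3 groups did not overlap, with Col-0 highest and bin2-1 lowest. Setting bin2-1 against Col-0, the log2 fold change was -0.62 (95% interval -1.05 to -0.18, limma, adjusted p = 0.163) and no call. With a pseudocount of 0.1 FPKM in place of 1 it was -1.14 (adjusted p = 0.162), since the added unit weighs heavily at these levels. HAI1 just passed the minimum mean of 1 FPKM, and only through its Col-0 libraries, so its direction is tied to the filter, and the fit without a filter gave an adjusted p of 0.153. Without MIR394A_OE replicate 1 and Col-0 replicate 1 the value was -0.47 (adjusted p = 0.21).

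As a share of the summed FPKM of the 9 clade A PP2C genes, ABI1 made up 34.6%, 37.8% and 45.9% in Col-0, 24.8% and 37.3% in MIR394A_OE, and 60.4%, 52.5% and 52.1% in bin2-1. The bin2-1 shares lay above those of all other libraries. PP2CA, another phosphatase of this clade and a strong brake on the pathway in seeds, showed the opposite, with 36.2%, 39.9% and 26.3% in Col-0 against 13.4%, 18.7% and 19.0% in bin2-1. PP2CA itself was at 34.17, 38.66 and 18.14 FPKM in wild type but at 9.72, 11.84 and 16.60 in bin2-1 (log2 fold change -1.15, SE 0.30, limma, adjusted p = 0.116). Hence the share of ABI1 moved with the level of PP2CA as well as its own, and these shares are given without a test.

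**Figure D2:**
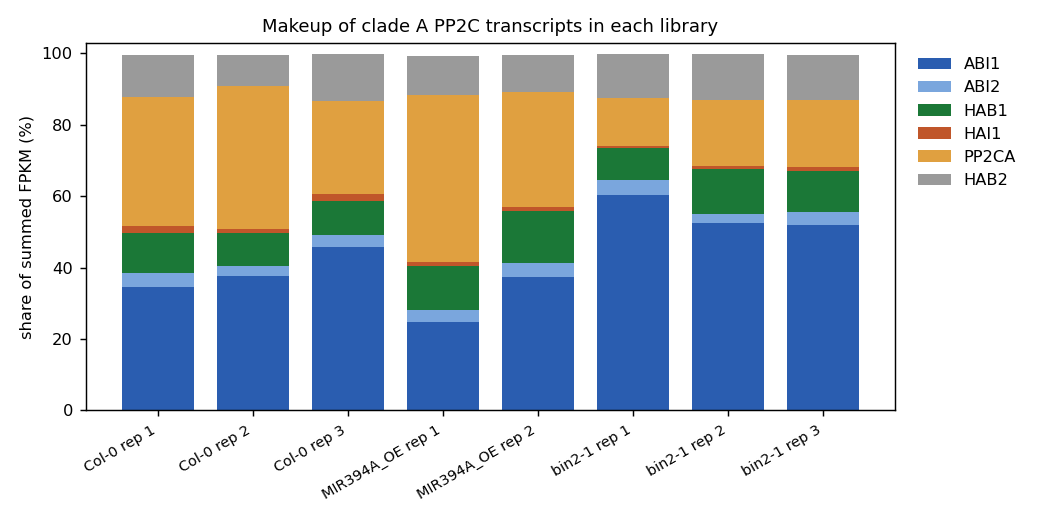
Share of the summed FPKM of the 9 clade A PP2C genes (y axis, percent) held by 6 of them in each library (x axis), and the gap up to 100% is AHG1, HAI2 and HAI3. ABI1 takes 52.1% to 60.4% in bin2-1 and 24.8% to 45.9% elsewhere, and PP2CA 13.4% to 19.0% in bin2-1 and 26.3% to 46.8% elsewhere.

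SNRK2.6, the SnRK2 kinase that closes stomata in response to abscisic acid, was at 17.37, 19.95 and 11.83 FPKM in Col-0, at 20.21 and 23.14 in MIR394A_OE and at 13.41, 16.08 and 18.88 in bin2-1. The MIR394A_OE libraries were the highest of the 8, and the bin2-1 values lay inside the range of Col-0. In bin2-1 against Col-0 the log2 fold change was -0.0044 (95% interval -0.48 to 0.47, limma, adjusted p = 0.993), which covers changes of that size in either direction. In MIR394A_OE against Col-0 it was 0.41 (95% interval -0.12 to 0.94, adjusted p = 0.873). Among the 3 kinases activated by abscisic acid, SNRK2.6 held 10.5% to 15.9% of the summed FPKM in Col-0 and SNRK2.2 61.5% to 72.9%. SNRK2.6 is known from guard cells, whose 6 markers were above 0 in every library and summed to 28.6 to 42.5 FPKM in Col-0, 37.0 and 44.8 in MIR394A_OE and 45.5 to 54.7 in bin2-1. The marker sum was thus higher in bin2-1 than in Col-0 while SNRK2.6 was not. Most of that rise came from the markers FAMA and MYB60. FAMA was at 11.08 to 12.79 FPKM in Col-0 and 15.61 to 18.9 in bin2-1. MYB60 was at 8.14 to 16.16 FPKM in Col-0 and 17.51 to 22.3 in bin2-1. Of the 6 markers 5 had positive log2 fold changes, and EPF1 had a negative one (-0.36). None was called. The part of guard cells in the levels of SNRK2.6 was not tested.

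ABF3, a bZIP activator of drought genes, was at 18.24, 12.86 and 9.37 FPKM in Col-0, at 20.78 and 19.52 in MIR394A_OE and at 12.73, 14.31 and 12.81 in bin2-1. Both MIR394A_OE libraries were above the rest, but Col-0 alone varied almost as widely as the whole set. The log2 fold change was 0.59 in MIR394A_OE against Col-0 (95% interval 0.05 to 1.14, limma, adjusted p = 0.873), 0.57 against bin2-1 (95% interval 0.02 to 1.11, adjusted p = 0.25) and 0.023 in bin2-1 against Col-0 (95% interval -0.46 to 0.51, adjusted p = 0.963). Without the 2 libraries lowest on component 1, the first was 0.78 (adjusted p = 0.828) and the last 0.25 (adjusted p = 0.41).

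ABI5, the bZIP factor that holds back germination and early seedling growth, was at 1.08, 3.36 and 1.36 FPKM in Col-0, at 0.66 and 1.89 in MIR394A_OE and at 2.66, 2.98 and 2.05 in bin2-1. Col-0 replicate 2 was the highest of all, and the 3 bin2-1 libraries lay above the others of Col-0 and above MIR394A_OE. The log2 fold change was 0.35 in bin2-1 against Col-0 (95% interval -0.35 to 1.05, limma, adjusted p = 0.572) and -0.69 in MIR394A_OE against bin2-1 (95% interval -1.48 to 0.09, adjusted p = 0.307). Against Col-0 the value of MIR394A_OE was -0.34 (95% interval -1.12 to 0.44, adjusted p = 0.883), and it changed sign to 0.058 without MIR394A_OE replicate 1. Without the 2 libraries lowest on component 1 these values were 0.14, -0.29 and -0.15.

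Like HAI1, RAB18 is known to be induced by abscisic acid. RAB18 is a dehydrin, also induced in drying seeds, and is the member counted here among the targets of the pathway. It was at 12.50, 18.96 and 11.18 FPKM in Col-0, at 7.99 and 10.36 in MIR394A_OE and at 4.76, 7.43 and 10.09 in bin2-1. Every MIR394A_OE and bin2-1 library was below every Col-0 library, the closest being MIR394A_OE replicate 2 and Col-0 replicate 3. In bin2-1 against Col-0 the log2 fold change was -0.87 (SE 0.27, 95% interval -1.49 to -0.25, limma, adjusted p = 0.164). In MIR394A_OE against Col-0 it was -0.56 (SE 0.31, 95% interval -1.25 to 0.13, adjusted p = 0.873), and both values rest on the same Col-0 libraries. Leaving out single libraries moved the bin2-1 value between -1.09 and -0.62, and without the 2 libraries lowest on component 1 it was -0.94 (adjusted p = 0.168).

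ABI5 and RAB18 are also seed genes. The 8 seed and embryo markers, storage proteins and oleosins among them, summed to 17.0, 25.2 and 4.13 FPKM in Col-0, 12.5 and 14.2 in MIR394A_OE, and 6.40, 9.98 and 17.8 in bin2-1. The storage protein gene CRU3 was at 0 in Col-0 replicate 3, and SESA4 was at 0 in MIR394A_OE replicate 2. The sum was highest in Col-0 replicate 2, where ABI5 and RAB18 were also highest, and within bin2-1 in replicate 3, where RAB18 was the highest of its group but ABI5 the lowest. In that library 1 gene, SESA1, gave 7.88 of the 17.8 FPKM. The part of seed remnants in these levels was not tested.

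The promoter sequences of RAB18, ABI5 and HAI1 are shown because bZIP factors of this pathway act at the core ACGTG. Each is the 250 bases before the outermost annotated start of the gene in RefSeq's TAIR10.1, written 5′ to 3′ in the direction of the gene, with ACGTG on either strand in capitals (CACGT is the same core on the other strand, and CACGTG holds both, overlapping).
RAB18 (chr5:26519448-26519697, minus strand): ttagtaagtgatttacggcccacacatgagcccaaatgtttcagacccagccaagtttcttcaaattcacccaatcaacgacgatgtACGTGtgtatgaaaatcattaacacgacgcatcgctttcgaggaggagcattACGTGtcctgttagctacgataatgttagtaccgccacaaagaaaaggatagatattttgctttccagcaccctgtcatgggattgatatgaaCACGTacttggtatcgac
ABI5 (chr2:15207637-15207886, minus strand): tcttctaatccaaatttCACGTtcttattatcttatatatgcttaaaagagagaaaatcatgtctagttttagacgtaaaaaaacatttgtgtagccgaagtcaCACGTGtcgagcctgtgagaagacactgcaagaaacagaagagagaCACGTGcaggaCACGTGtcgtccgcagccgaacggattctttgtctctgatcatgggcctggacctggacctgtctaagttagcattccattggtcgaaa
HAI1 (chr5:23896940-23897189, minus strand): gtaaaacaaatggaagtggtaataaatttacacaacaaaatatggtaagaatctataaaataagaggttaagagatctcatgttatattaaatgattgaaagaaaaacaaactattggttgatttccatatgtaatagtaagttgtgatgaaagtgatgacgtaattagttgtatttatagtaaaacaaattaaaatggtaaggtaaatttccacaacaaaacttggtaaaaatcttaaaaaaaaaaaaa
RAB18 held the core at 3 places, beginning 163, 111 and 18 bases before the start, and ABI5 at 4 places, 3 of them as CACGTG. Over windows of the same length of 27443 protein-coding genes, 22.9% held ACGTG, 4.98% at 2 or more places, and 6.49% held CACGTG. HAB1 and ABF3 held 1 place each, and these letters were not in the windows of NCED3, ABI1, ABI2, HAI1 and SNRK2.6. The brassinosteroid-response letters CGTGTG, searched on both strands, were found in RAB18 and ABI5, each overlapping an ACGTG core, against 5.37% of all windows. CGTGCG, searched the same way, was found in ABF3 alone among the 9, against 1.57% of all windows. RAB18 and HAI1, the members with the most negative log2 fold changes in bin2-1 against Col-0, thus differed in this window, which is a description of the letters only. Outside the 9 genes, PP2CA held ACGTG at 4 places and CGTGTG at 0. The target gene RD29A held ACGTG at 0 places and CGTGTG at 1, beginning 189 bases before the start. Bases after the outermost annotated start were not searched, so the absence of ACGTG from RD29A or HAI1 holds for this window only.

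**Figure D3:**
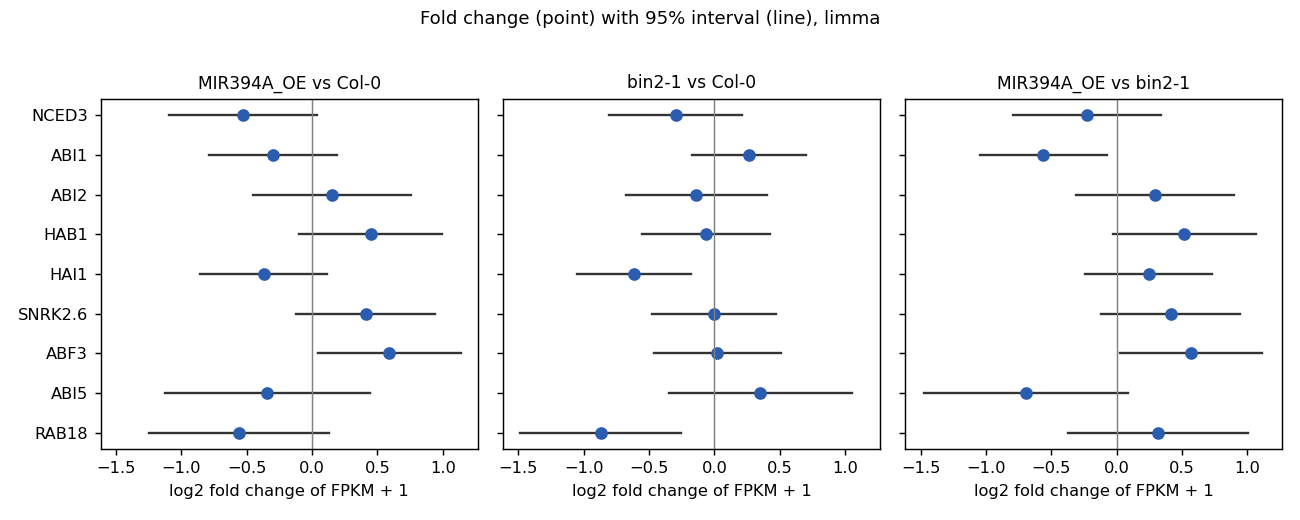
Log2 fold change of FPKM + 1 (x axis, point) with its 95% interval from limma (line) for the 9 genes (y axis) in the 3 comparisons. The intervals of HAI1 and RAB18 in bin2-1 against Col-0 leave out 0. So do those of ABF3 in MIR394A_OE against both other groups and of ABI1 in MIR394A_OE against bin2-1. None passed adjustment over all genes.

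Libraries of the 2 groups did not overlap for 6 of the 9 genes in MIR394A_OE against Col-0, where 17.1% of all genes tested were so separated. HAB1, SNRK2.6 and ABF3 were the 3 higher (background 10.9%), and NCED3, HAI1 and RAB18 the 3 lower (background 6.17%). NCED3 and HAI1 passed the minimum mean through their Col-0 libraries, so the direction of these 2 is tied to that filter and nothing is read from their count. The bin2-1 and Col-0 libraries did not overlap for 2 of 9, HAI1 (its direction again tied to the filter) and RAB18, both lower. The background there was 28.7% (20.2% higher, 8.47% lower), and 2 of 9 lies near it. MIR394A_OE and bin2-1 did not overlap for 5 of 9, with HAB1, HAI1, SNRK2.6 and ABF3 higher and ABI5 lower, against a background of 36% (15% higher, 20.9% lower). Limma called none of these genes.

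The wider pathway list held 84 genes, of which 80 were in the table and 66 were tested. None was called in any comparison. At an unadjusted p under 0.05 there were 3 in MIR394A_OE against Col-0 (3 higher), 20 in bin2-1 against Col-0 (12 higher, 8 lower) and 11 in MIR394A_OE against bin2-1 (8 higher, 3 lower). The background at this p was 4.78%, 17.8% and 19% of genes, and the list's shares were 4.55%, 30.3% and 16.7%. As the list was chosen with earlier results of these data known, these shares are given without a test. The median log2 fold change of the list was 0.15, -0.02 and 0.08, against 0.04, 0.10 and -0.06 over all genes tested.

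Targets of the pathway had log2 fold changes of both signs in bin2-1 against Col-0, and none was called. RD29A, a drought and cold-induced protective gene with abscisic acid elements, was at 14.11, 20.59 and 34.75 FPKM in wild type but at 84.03, 79.97 and 70.14 in the mutant (log2 fold change 1.80, SE 0.38, limma, adjusted p = 0.086). MYB44, a stress-induced transcription factor gene, was at 264.45, 248.10 and 99.18 FPKM in wild type but at 37.96, 29.27 and 72.41 in the mutant (log2 fold change -2.09, SE 0.45, adjusted p = 0.0895). Neither group pair overlapped, and RD29A was thus on the opposite side of Col-0 from RAB18. The dehydrin genes LTI30 (0.70, SE 0.18, adjusted p = 0.113) and ERD10 (0.66, SE 0.19, adjusted p = 0.141) had positive log2 fold changes, as did the receptor gene PYR1 (0.60, SE 0.17, adjusted p = 0.134). Of the 20 targets tested 8 were positive and 12 negative, with 6 and 2 of them at an unadjusted p under 0.05. Over all genes tested 63.4% were positive, and 11.1% were higher and 6.67% lower at that p.

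By role, all 7 transcription factor genes tested had positive log2 fold changes in bin2-1 as deposited (median 0.35, 3 at an unadjusted p under 0.05), and 5 of 6 clade A PP2C genes had negative ones (median -0.10, 2 at that p). The negative PP2C genes include HAI1, also at that p, whose direction is tied to the filter, and HAB1, which was close to 0 (-0.07). The median over all genes tested was 0.10, and rescaling by the median of ratios brought it to 0.01 and the share of positive genes to 50.7%. Under that scaling and under quantile scaling 6 of the 7 transcription factor genes were positive, ABF3 being the exception, and 5 of the 6 PP2C genes were negative. The receptors had 6 of 9 positive (median 0.08), or 4 under median-of-ratios scaling, the SnRK2 kinases 5 of 10 (median 0.04) and the synthesis genes 3 of 7 (median -0.12). All 4 transport genes and 2 of 3 inactivation genes were negative (medians -0.48 and -0.61). Without Col-0 replicate 3 limma called 5 genes of the list (adjusted p 0.0299 to 0.0445), or 7.58% of the 66, against 0.958% of all genes tested in that fit. Of the fits with a single library left out, that one had the most calls over all genes in this comparison. The list was also chosen with earlier results of these data known, so nothing is read from its share. Of the 5 list genes called, CYP707A3 and DTX50 were named after their values were seen. RD29A (2.13) was higher in bin2-1, and MYB44 (-2.54), PP2CA (-1.48), CYP707A3 (-3.14), an enzyme that inactivates abscisic acid, and DTX50 (-3.17), an exporter of the hormone, were lower. CYP707A3 was at 144.94, 75.40 and 13.67 FPKM in wild type but at 7.93, 7.73 and 21.18 in bin2-1, so Col-0 replicate 3 lay inside the range of bin2-1. That library was also the nearest of Col-0 to bin2-1 on component 1 (2.69, against -15.0 and -35.4). Among fits with a different single library left out, only that without bin2-1 replicate 3 called a list gene in this comparison (1 call).

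**Figure D4:**
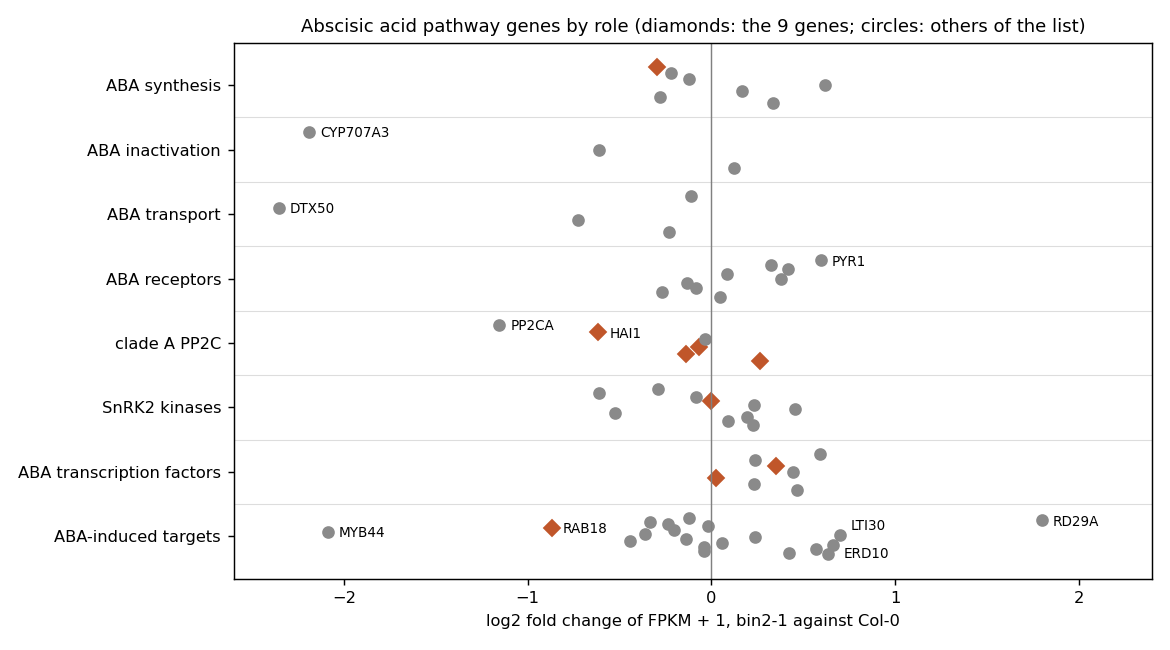
Log2 fold change of FPKM + 1 in bin2-1 against Col-0 (x axis) for the 66 tested genes of the pathway list, grouped by role (y axis); diamonds are the 9 genes and circles the others. RD29A (1.80) and MYB44 (-2.09) stand at opposite ends of the targets, with RAB18 at -0.87.

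In MIR394A_OE against Col-0 the other list genes of smallest p were LTI30 (log2 fold change 0.72, SE 0.20), PYR1 (0.54, SE 0.19), PYL1 (0.43, SE 0.21), ABA1, the epoxidase that supplies the precursor carotenoids (0.50, SE 0.26), HB12, a stress-induced homeobox gene (0.53, SE 0.27) and ABCG40, an importer of the hormone (-1.07, SE 0.55). In limma each had an adjusted p of 0.873. LTI30 was at 95.76, 100.56 and 91.11 FPKM in Col-0, 148.85 and 167.64 in MIR394A_OE and 123.29, 162.47 and 189.01 in bin2-1. All MIR394A_OE and bin2-1 libraries thus lay above every Col-0 library. PYR1 showed the same order, with 87.93 to 108.85 FPKM in Col-0 and at least 132.31 in the libraries of the other groups. These comparisons again share the Col-0 libraries.

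RAB18 and ABF3 had the widest range of log2 values over the 8 libraries among the members averaging 5 FPKM or more, and the genes most like them were looked up among 13823 genes at that level. Likeness was the root mean square difference of log2(FPKM + 1) after centring each gene on its 8-library mean. For RAB18 the nearest were SUFE2 (0.14), SYP121 (0.14) and AT5G01710 (0.19), and for ABF3 they were IQD19 (0.09), APC10 (0.10) and AT5G48640 (0.10). SYP121, a syntaxin of the plasma membrane, was at 129.57, 183.23 and 119.67 FPKM in Col-0, 87.87 and 136.58 in MIR394A_OE and 67.50, 79.01 and 120.68 in bin2-1. Col-0 replicate 2 was highest, as for RAB18. Unlike for RAB18, MIR394A_OE and bin2-1 each overlapped Col-0.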

How the data were processed

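Gene expression was measured by RNA-seq in 8 libraries, grouped by their titles. The authors deposited 1 table of FPKM values, per the file headers. Per the submitters' processing notes, Bowtie2 and HISAT were used, without a stated role. How FPKM were computed, the genome build and annotation, and strand handling: not given in the sources used here. NCBI gene numbers were matched to RefSeq's TAIR10.1 table (22798 of 22951). In TAIR10.1 ABI1, ABF3 and RAB18 overlap a neighbour on the opposite strand by 22, 24 and 11 bases, where reads could be shared without strand.

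The 18798 genes averaging 1 FPKM or more across libraries were tested as log2(FPKM + 1), which understates fold changes of low genes, with limma 3.58.1 in R 4.3.3. The 3 group means were fitted jointly over 8 libraries (eBayes with trend and robust), with two-sided p-values, Benjamini-Hochberg adjustment over all genes and a threshold of 0.05. Depth was estimated over 1646 genes of 500 to 1800 nt, where 88.1% to 92.9% of values up to 5 reads came out whole within 0.1 read (20% by chance), and covers counting error only. Read numbers per gene use TAIR10.1 transcript lengths and are approximate.

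The members and lists were chosen with earlier results of these data known. Named are all 9 members, called pathway genes, the 6 of smallest p in each comparison with Col-0, and the nearest genes by likeness. Outside this rule, CYP707A3, DTX50, NCED2, NCED5, NCED9, SNRK2.2, the markers FAMA, MYB60, EPF1, CRU3, SESA1 and SESA4, and the promoters shown were picked after their values were seen. NCED6, PYL13, DPBF2 and ABI4 were not analysed here. Alternatives covered the pseudocount, filter, scaling, replicate block, groups fitted, form of eBayes and libraries left out.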

Additional observations from a re-analysis of the deposited data

How the results depend on the processing

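No member was called under any alternative except ABI1 in MIR394A_OE against bin2-1 without MIR394A_OE replicate 2, so that leaving out single libraries gave 0 to 1 members called there and 0 in the other comparisons. Pathway genes called ranged from 0 to 5 in bin2-1 against Col-0 (5 without Col-0 replicate 3, 1 without bin2-1 replicate 3) and from 0 to 4 in MIR394A_OE against bin2-1 (ABI1, MYB44, PP2CA and RD29A without MIR394A_OE replicate 2, 6.06% of the list against 12.3% of all genes in that fit), and stayed 0 in MIR394A_OE against Col-0. The cause was not tested. Values near 0 changed sign in bin2-1 against Col-0: ABF3 to -0.081 under median-of-ratios and -0.069 under quantile scaling, and ABI2 to 0.019, HAB1 to 0.062 and SNRK2.6 to 0.050 without both libraries lowest on component 1. Leaving out single libraries gave -0.20 to 0.25 for ABF3, -0.28 to 0.086 for ABI2, -0.23 to 0.080 for HAB1 and -0.21 to 0.15 for SNRK2.6, and -0.74 to 0.058 for ABI5 in MIR394A_OE against Col-0. HAI1 and RAB18 kept their sign in bin2-1 under every alternative run (adjusted p 0.134 to 0.492 and 0.119 to 0.471). As their bin2-1 and Col-0 libraries did not overlap, leaving out libraries could not change that sign, so nothing is read from it. The direction of HAI1 is also tied to the filter.

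Over all genes the calls were less stable. In bin2-1 against Col-0 the 21 calls became 112 under median-of-ratios scaling, 3 without a filter, 9 without trend and robust, 0 with only those groups fitted, 1 without both libraries lowest on component 1 and 0 to 180 with a library left out. In MIR394A_OE against bin2-1 the 10 calls became 6 with either smaller pseudocount, 3 without a filter, 0 with only those groups fitted, 2 without both libraries and 1 to 2308 with a library left out. In MIR394A_OE against Col-0 the 2 calls became 0 with only those groups fitted and 0 to 2 with a library left out. With the replicate number as a block, members called stayed 0 in all comparisons and genes called became 32 in bin2-1 against Col-0, 2 in MIR394A_OE against Col-0 and 9 in MIR394A_OE against bin2-1. Deviations of same-numbered libraries correlated at 0.083, -0.202 and -0.111 for bin2-1 and Col-0, 0.36 and 0.27 for MIR394A_OE and Col-0, and 0.322 and 0.030 for MIR394A_OE and bin2-1. Not every pair is positive and MIR394A_OE has only 2 libraries, so the numbers were not taken to pair samples. A minimum mean of 5 FPKM leaves NCED3, ABI2, HAI1 and ABI5 untested. At this depth differences in these low genes rest on few reads.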
